A study of Rattus norvegicus with 9 samples.

Results

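Nuclear-coded subunits of the respiratory chain were followed across 9 kidney cortex libraries of rats labelled Medical Bypass. Members were the rows of the deposited table whose symbol began with Nduf (subunits of the a, b, c, s and v series), Uqcr, Cox4 to Cox8 or Atp5, or was Sdha, Sdhb, Sdhc, Sdhd, Cyc1 or Cycs, and whose mean over the 9 libraries was at least 10 normalised reads. Of 18420 rows that named a gene, 83 carried such a symbol and 79 of them reached that mean. They comprised 35 genes of complex I, 4 of complex II, 9 of complex III, 13 of complex IV and 17 of complex V, with Cycs as the only gene of the mobile carrier cytochrome c. Subunits with no row of their own symbol in the table were not analysed here.

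The rats were of the ZDF fa/fa strain, which lacks a working leptin receptor and is obese, and all were recorded as diabetic. All 9 libraries belonged to the Medical Bypass group, so every one of them carried the same genotype, diabetic state and treatment, and the labels give no drug, dose, time, age or sex. No control group was analysed here, and no effect of the treatment can be read from these values. The comparisons are therefore between the complexes and between replicates. The labels do not say that the replicates were separate animals, so every p-value here speaks of the variation among these libraries alone, and that variation may be technical.

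Complex I takes electrons from NADH and complex II takes them from succinate, and both pass them to ubiquinone. Complex III hands them to cytochrome c, complex IV to oxygen, and complex V, the ATP synthase, uses the proton gradient made by complexes I, III and IV to make ATP. Except for complex II, each complex also holds subunits encoded by the mitochondrial genome, for which no row was found under a mitochondrial symbol. The kidney cortex is rich in proximal tubule cells, which depend on this chain to power reabsorption.

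Depth ranged from 10757440 reads in genes in replicate 3 to 43071223 in replicate 8. Reads that aligned to more than 1 place made up 14.9% to 22.1% of all counted reads, and reads outside genes 22.0% to 31.3%. Replicate 5 had the highest multi-aligned share and the lowest share outside genes, and it stood apart in the respiratory chain genes as well. Where leaving it out ended a call, that is said beside the call; ranges of single genes include it. Values are gene reads divided by a size factor, with no correction for length, so levels are not compared between genes. In bulk tissue, fewer cells of a type and less RNA per cell cannot be told apart.

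Promoters of 65 member genes were listed in RefSeq (build GRCr8), each reaching from 250 bases before the start of the gene to 50 bases after it. They were searched on both strands for 4 motifs of factors known for nuclear control of mitochondrial genes or for general promoter use. The motif of NRF1 (CGCANGCG) was in 35.4% of the member promoters, against 7.60% of all 33469 promoters in the table and 15.5% of the 10226 promoters of tested genes. The core of the YY1 motif (AANATGGC) was in 38.5%, against 6.96% of all promoters and 9.53% of those of tested genes. The ETS core bound by GABP (CCGGAAG) was in 29.2%, against 8.75% and 16.4%. The CCAAT box (CCAAT) was in 36.9%, close to the 37.5% of all promoters and the 36.6% of tested genes. By complex, the NRF1 motif was found in 9 of 30 genes of complex I, 2 of 4 of complex II, 1 of 5 of complex III, 1 of 9 of complex IV and 9 of 16 of complex V. The YY1 core was found in 14 of 30, 3 of 4, 1 of 5, 1 of 9 and 6 of 16 genes of complexes I to V. A match is a description of letters and not evidence of binding, and matches of different motifs overlapped in 0 member promoters.

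The 250 bases before the start are shown 5′ to 3′ for a gene of each complex and for Cycs, chosen after the values were seen because they include steady members (Sdha, Uqcrc2) and widely spread members (Ndufs8, Cox8a, Atp5f1d), with capitals marking matches of the NRF1, ETS or YY1 motif. They lie at chr1:210573699-210573948 on the minus strand for Ndufs8, chr1:30764303-30764552 on the plus strand for Sdha and chr1:184598990-184599239 on the plus strand for Uqcrc2. The others lie at chr4:80984768-80985017 for Cycs, chr1:213833624-213833873 for Cox8a and chr7:10214351-10214600 for Atp5f1d, all on the minus strand. Capitals mark an ETS and a YY1 match in Ndufs8 and an NRF1 match in Cycs and Atp5f1d. They also mark a pair of NRF1 matches in Sdha and a pair of ETS matches in Uqcrc2 and Cox8a. Bases after the start were searched for the counts above but are not shown. A lack of capitals therefore does not mean that the searched promoter lacked the motif. The YY1 core was counted in 3 of 4 genes of complex II, but none of the 4 has a match within these 250 bases.
Ndufs8: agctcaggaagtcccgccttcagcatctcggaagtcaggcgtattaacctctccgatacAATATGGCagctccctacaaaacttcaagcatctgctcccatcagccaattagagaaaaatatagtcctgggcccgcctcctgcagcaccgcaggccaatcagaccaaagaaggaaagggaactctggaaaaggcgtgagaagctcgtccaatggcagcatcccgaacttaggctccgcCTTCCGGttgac
Sdha: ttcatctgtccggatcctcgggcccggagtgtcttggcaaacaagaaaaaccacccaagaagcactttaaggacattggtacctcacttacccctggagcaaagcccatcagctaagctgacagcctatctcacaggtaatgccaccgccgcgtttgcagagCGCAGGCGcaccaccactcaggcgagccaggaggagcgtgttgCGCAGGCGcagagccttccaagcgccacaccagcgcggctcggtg
Uqcrc2: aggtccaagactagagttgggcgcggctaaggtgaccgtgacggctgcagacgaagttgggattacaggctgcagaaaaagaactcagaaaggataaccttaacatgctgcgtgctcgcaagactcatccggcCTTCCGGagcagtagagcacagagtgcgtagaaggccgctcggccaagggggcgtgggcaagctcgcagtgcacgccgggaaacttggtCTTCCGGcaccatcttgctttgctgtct
Cycs: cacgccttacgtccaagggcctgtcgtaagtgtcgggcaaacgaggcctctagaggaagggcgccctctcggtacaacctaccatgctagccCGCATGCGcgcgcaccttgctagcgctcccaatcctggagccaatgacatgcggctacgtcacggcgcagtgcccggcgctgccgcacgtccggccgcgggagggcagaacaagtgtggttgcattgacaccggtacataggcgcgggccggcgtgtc
Cox8a: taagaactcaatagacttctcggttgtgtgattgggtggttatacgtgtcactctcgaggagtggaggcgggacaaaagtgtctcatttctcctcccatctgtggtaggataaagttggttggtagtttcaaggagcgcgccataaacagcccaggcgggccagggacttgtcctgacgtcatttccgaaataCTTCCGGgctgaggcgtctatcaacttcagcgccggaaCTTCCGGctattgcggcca
Atp5f1d: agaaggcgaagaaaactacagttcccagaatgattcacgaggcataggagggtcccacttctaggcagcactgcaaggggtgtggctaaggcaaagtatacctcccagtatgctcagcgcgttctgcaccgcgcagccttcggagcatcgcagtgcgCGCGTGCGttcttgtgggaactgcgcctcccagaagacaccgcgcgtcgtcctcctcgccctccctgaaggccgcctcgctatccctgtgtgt
The ETS core in capitals appeared in the steady Uqcrc2 and in the widely spread Cox8a alike, and the NRF1 motif in the steady Sdha and the widely spread Atp5f1d.

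The members' reads made up 3.21% ± 0.439 of all gene reads (SD, n = 9), between 2.65% in replicate 2 and 4.03% in replicate 5. Complex IV varied most, from 0.343% to 0.684% of gene reads (1.99-fold), and complex II least, from 0.229% to 0.275% (1.20-fold). Complex I spanned 0.603% to 0.956% (1.59-fold), complex III 0.262% to 0.374% (1.43-fold) and complex V 1.17% to 1.71% (1.46-fold). All 5 complexes were lowest in replicate 2 and highest in replicate 5. Without replicate 5 the folds were 1.45, 1.16, 1.26, 1.64 and 1.34 for complexes I to V. Cycs spanned 0.0300% to 0.0551% (1.84-fold) with another order, lowest in replicate 1 and highest in replicate 4. Wilson 95% intervals on these shares were at most 0.0101 percentage points wide on either side, and they cover counting error only.

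The mean log2 level of each complex was also lowest in replicate 2 and highest in replicate 5. From replicate 2 to replicate 5 it spanned 2.00-fold in complex I, 1.46-fold in complex II, 1.78-fold in complex III, 2.03-fold in complex IV and 2.06-fold in complex V. In log2 units these ranges were 1.00, 0.55, 0.83, 1.02 and 1.04, and without replicate 5 they were 0.85, 0.44, 0.63, 0.79 and 0.83, so complex II stayed the narrowest. In replicate 5 the median member stood above its own mean by 0.60 (log2) in complex I, 0.30 in complex II, 0.47 in complex III, 0.62 in complex IV and 0.52 in complex V. In replicate 2 the same medians were -0.42, -0.24, -0.39, -0.43 and -0.47. Replicates 7 and 8 were above the mean in all 5 complexes, and replicates 3 and 6 were below it in all 5. Replicate 1 was also below it in all 5, with medians from -0.01 in complex I to -0.11 in complex II. Cycs departed from this order, with -0.58 in replicate 1, 0.47 in replicate 4 and 0.03 in replicate 5.

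**Figure D1:**
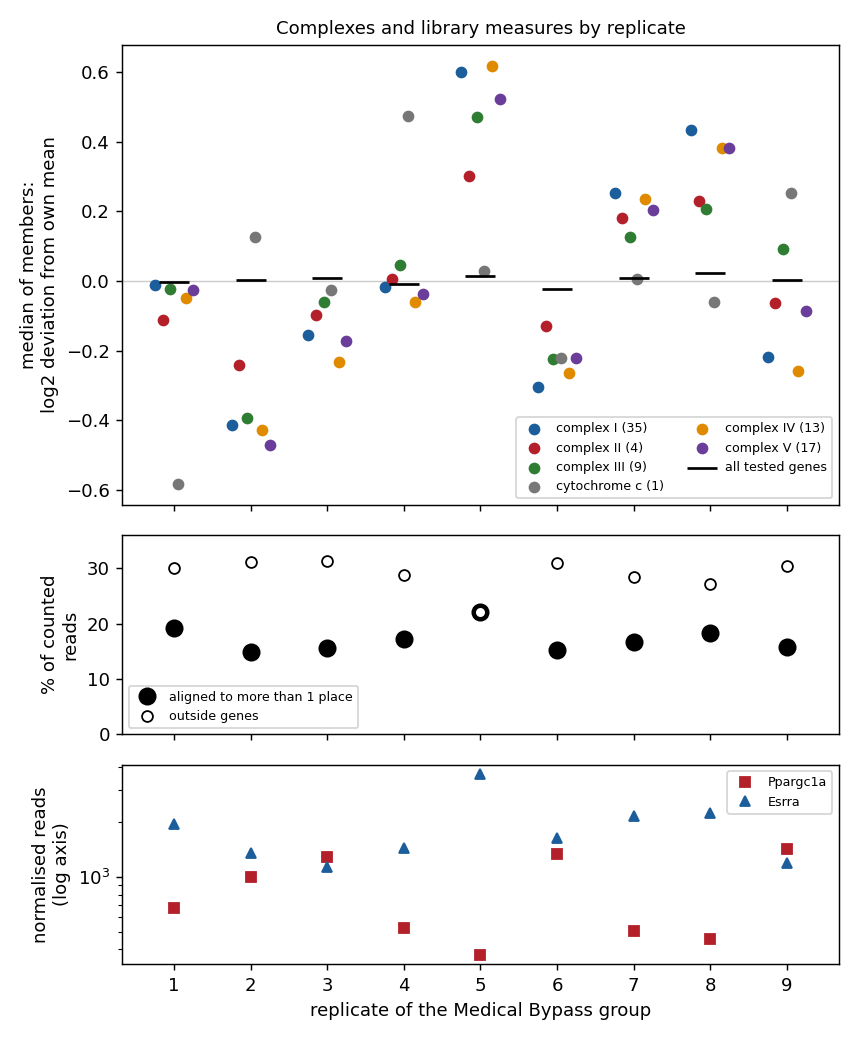
Upper panel: median over the members of each complex of the log2 deviation from each gene's own mean, per replicate (bars, all tested genes). Middle panel: reads aligned to more than 1 place and reads outside genes as % of counted reads. Lower panel: Ppargc1a and Esrra in normalised reads on a log axis. The 5 complexes were highest in replicate 5 and lowest in replicate 2, while cytochrome c was highest in replicate 4 and lowest in replicate 1.

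Single members followed their complex. The highest value fell in replicate 5 for 60 of 79 members (75.9%), against 22.1% of the 13647 tested genes, and in replicate 8 for 11 members (13.9%), against 7.60%. By complex, replicate 5 was highest for 27 of 35 genes of complex I, 2 of 4 of complex II, 7 of 9 of complex III, 10 of 13 of complex IV and 14 of 17 of complex V. The lowest value fell in replicate 2 for 34 members (43.0%), against 9.95% of all tested genes, and in replicate 3 for 22 members (27.8%), against 17.2%. Sdha was highest in replicate 3, Uqcrc2 and Cycs in replicate 4 and Ndufs1 in replicate 9.

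**Figure D2:**
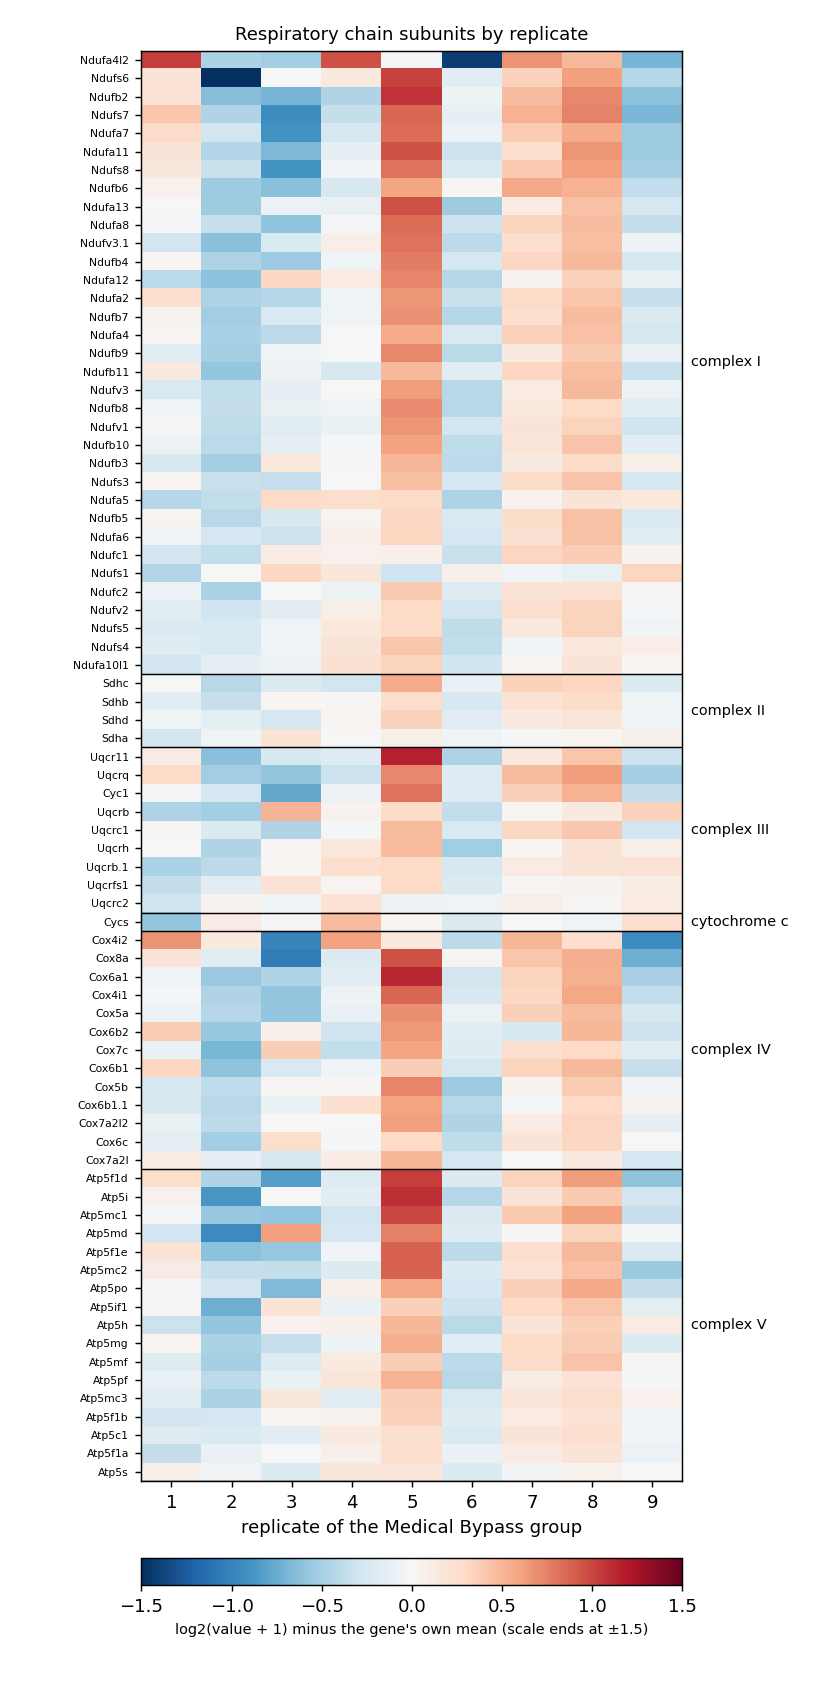
Each row is a reported subunit and each column a replicate; colour is log2(value + 1) minus the gene's own mean, on a scale that ends at ±1.5. Most rows are red in replicate 5 and blue in replicate 2, while Sdha, Uqcrc2 and Atp5s at the foot of their blocks are pale throughout.

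Within complexes the subunits differed widely in spread. The SD of log2 values had a median of 0.36 over the 79 members, against 0.33 over all tested genes (quartiles 0.23 and 0.47). It was 0.37 in complex I, 0.21 in complex II, 0.33 in complex III, 0.40 in complex IV and 0.36 in complex V, and 0.30 for Cycs. The all-gene median was exceeded by 22 of 35 genes of complex I, 1 of 4 of complex II, 4 of 9 of complex III, 10 of 13 of complex IV and 11 of 17 of complex V. The spread was then set against genes of like level. A limma variance test, which compares each gene with the trend of variance on level, called 0 of 79 members at an adjusted p under 0.05, and 0% of all tested genes. Even the tested gene with the largest excess, a variance 55.1 times the trend, was not called. The absence of calls therefore does not show that the members had an ordinary spread. At an unadjusted p under 0.05, 3 members lay over the trend, against 4.2% of all tested genes, and 2 lay under it, against 6.3%. Those over it were Ndufb2 (variance 6.79 times the trend), Ndufs7 (6.62 times) and Cox8a (5.35 times), each with a limma adjusted p of 0.957. Those under it were Sdha (0.228 times the trend, limma adjusted p = 0.741) and Atp5s (0.233 times, adjusted p = 0.750). The median ratio to the trend was 1.76 over the members and 1.11 over all tested genes, and 0.604 in complex II, 1.49 in complex III, 1.63 in complex V, 1.99 in complex I and 2.04 in complex IV.

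**Figure D3:**
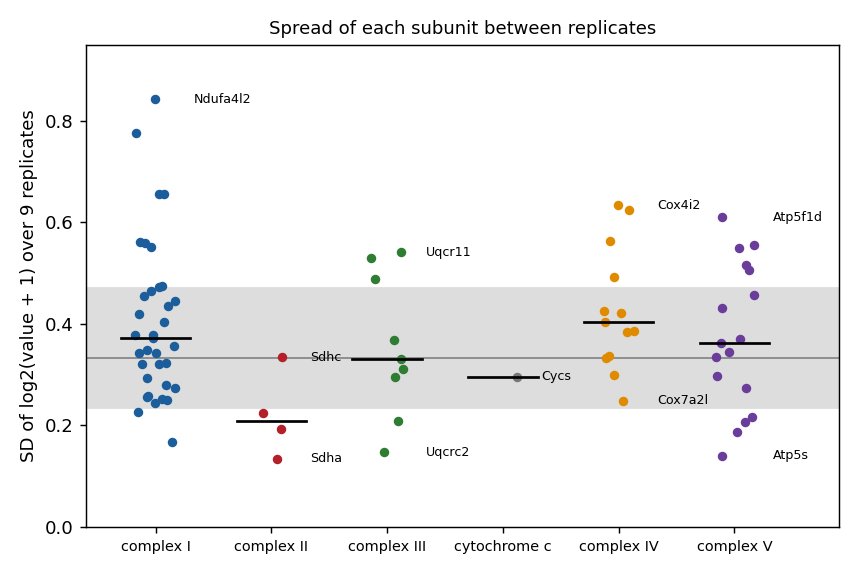
SD of log2(value + 1) over the 9 replicates for each subunit (points), with the median of each complex (black bars) and the median and quartiles of all tested genes (grey line and band). Complex II lies lowest, with a median of 0.21, and complexes I, IV and V reach above 0.60.

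The order of the replicates ran with measures of the libraries themselves. The multi-aligned share was chosen because earlier results of these data had shown it running with a list of oxidative phosphorylation genes. The counts on it therefore describe a relation already seen in these libraries and are not independent evidence of it. A limma slope of log2 level on the multi-aligned share was positive at an adjusted p under 0.05 for 46 of 79 members (58.2%) and negative for 0, against 16.3% and 18.7% of all tested genes. By complex, the positive calls were 23 of 35 in complex I, 1 of 4 in complex II, 5 of 9 in complex III, 9 of 13 in complex IV and 8 of 17 in complex V, and Cycs was not called. The median slope of the members was 0.117 log2 units per percentage point, against 0.00685 for all tested genes. Without replicate 5, the positive calls fell to 10 members, against 3.89% of all tested genes, while the median slope was 0.119 and 71 of 79 slopes were above 0. Ndufs7, Ndufa2, Ndufa11, Ndufb7, Uqcr11, Uqcrq, Cox6b1, Atp5f1d and Atp5f1e were still called without it, and Ndufa4l2 was newly called. Cox6b1.1, a further row of the Cox6b1 symbol, lost its call (limma adjusted p = 0.0307, and 0.330 without replicate 5), so the result for Cox6b1 differed between its rows. On the recovered reads, edgeR called 47 members, against 16.8% of all tested genes, and DESeq2 49, against 18.7%. The share of reads outside genes with its sign turned, a measure chosen after the values were seen, gave 52 members, against 13.4%. What share of these slopes belongs to the libraries and what to the tissue was not tested.

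Ppargc1a encodes a coactivator known to drive mitochondrial biogenesis. It had 677, 997, 1280.0, 522, 371, 1341, 505, 458 and 1431 normalised reads in replicates 1 to 9. Replicate 5, where most subunits were highest, had the lowest Ppargc1a, and replicates 1, 4, 5, 7 and 8 lay apart from replicates 2, 3, 6 and 9, so a slope on it mainly sets those replicates against each other. The limma slope on log2 Ppargc1a was negative at an adjusted p under 0.05 for 51 of 79 members (64.6%) and positive for 0, against 19.2% and 20.2% of all tested genes. The negative calls were 25 of 35 in complex I, 2 of 4 in complex II, 4 of 9 in complex III, 10 of 13 in complex IV and 10 of 17 in complex V. Without replicate 5 they fell to 29 members, against 8.65% of all tested genes, and Ndufv1, Ndufv2, Ndufa13, Sdhc, Sdhd, Cox7a2l and Atp5i were among those lost. edgeR called 52 members, against 19.2% of all tested genes, and DESeq2 53, against 20.8%. Both slopes came from the same 9 libraries, and Ppargc1a was itself lower with the multi-aligned share (slope -0.254 ± 0.0584, SE, limma adjusted p = 0.00665). With both measures in 1 model, an alternative chosen after the values were seen, 0 members were called for either, against 0% of all tested genes on the share and 0.022% on Ppargc1a in the members' direction. The members' median slopes were then 0.0606 on the share, with 66 of 79 above 0, and -0.21 on Ppargc1a, with 73 of 79 below 0. The parts of the measures in these slopes cannot be told apart.

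**Figure D4:**
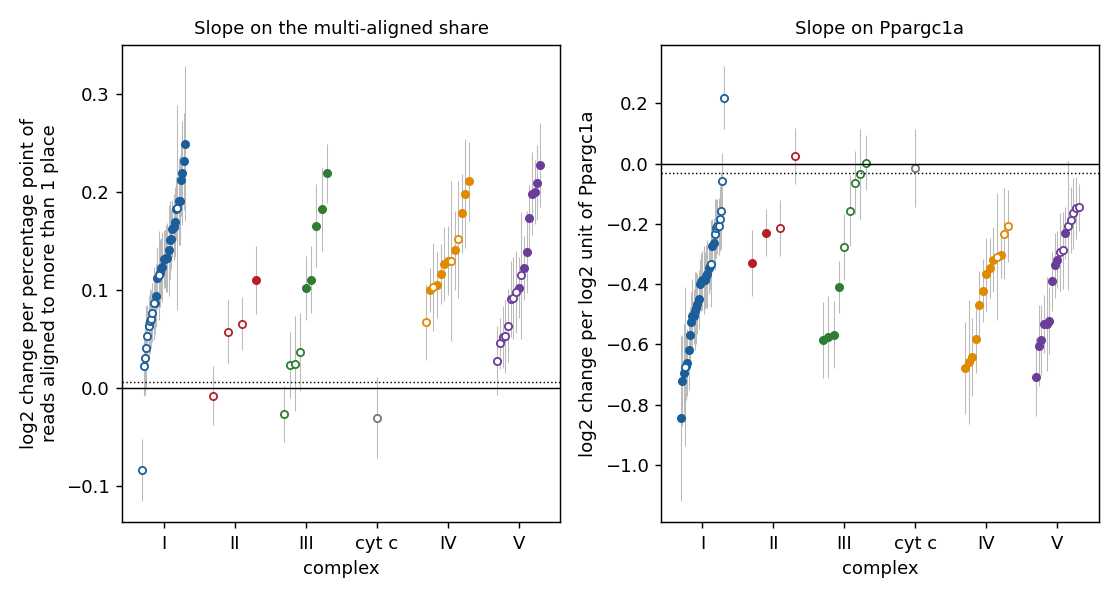
Slope of each subunit on the multi-aligned share (left, log2 change per percentage point) and on Ppargc1a (right, log2 change per log2 unit) with its SE, by complex. Filled points passed an adjusted p of 0.05 and the dotted line is the median of all tested genes; 46 points are filled on the left and 51 on the right, with Cycs open in both panels.

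In complex I, the core subunits ranged widely in spread. Ndufs1, the large iron-sulphur subunit, had 9036 normalised reads in replicate 1, a median of 12301 and 15384 in replicate 9, and its slope on the multi-aligned share was -0.0828 ± 0.0315 (SE, limma adjusted p = 0.0569). It was called in neither slope, with an adjusted p of 0.11 on Ppargc1a. Ndufs7 and Ndufs8, iron-sulphur subunits of the ubiquinone-binding module, had wide ranges. Ndufs7 had 1857 in replicate 3, a median of 3272 and 6480.1 in replicate 5, a 3.49-fold range, and its slope on Ppargc1a was -0.72 ± 0.15 (SE, limma adjusted p = 0.00287). Ndufs8 had 2026 in replicate 3, a median of 3671 and 6657 in replicate 5, a 3.29-fold range, with a slope on Ppargc1a of -0.66 ± 0.11 (SE, limma adjusted p = 0.000743). Replicate 5 was highest and replicate 3 lowest for both. Ndufs3, of the ubiquinone-binding module, and Ndufv1, which carries the flavin, were called in both slopes, with 1.73-fold and 2.07-fold ranges. Ndufv2, an iron-sulphur subunit of the NADH-binding arm, was called on Ppargc1a only (slope -0.27 ± 0.09, adjusted p = 0.0271), with 0.117 as its adjusted p on the multi-aligned share. That call was lost without replicate 5, 6, 7 or 8 (adjusted p = 0.0619 to 0.0976). Without replicate 5, the calls on the multi-aligned share were lost for Ndufs3, Ndufs8 and Ndufv1 (adjusted p = 0.0794, 0.0615 and 0.108), and the call of Ndufv1 on Ppargc1a was lost (adjusted p = 0.0590). Whether these subunits differ from each other in slope was not tested.

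Several accessory subunits of complex I, which surround the catalytic core, also had wide ranges. Ndufb2 had 1668 normalised reads in replicate 3, a median of 2551 and 5720.2 in replicate 5, a 3.43-fold range. Ndufa11 had 2550.0 in replicate 3, a median of 3756 and 7927 in replicate 5, with a slope on the multi-aligned share of 0.213 ± 0.0376 (SE, limma adjusted p = 0.00245). Ndufa8 had 1628 in replicate 3, a median of 2438 and 4405 in replicate 5, with a slope on Ppargc1a of -0.57 ± 0.09 (adjusted p = 0.000627). All of them were highest in replicate 5 and lowest in replicate 3. Ndufa2 and Ndufa13 were also called in both slopes but were lowest in replicate 2. Ndufa4, which was first assigned to complex I and is now placed in complex IV, had 10297 in replicate 2, a median of 14298 and 21267 in replicate 5, and was called in both slopes. Without replicate 5, the calls on the multi-aligned share were lost for Ndufa4, Ndufa8 and Ndufa13 (adjusted p = 0.0856, 0.0812 and 0.0664), and so was that of Ndufa13 on Ppargc1a (adjusted p = 0.0555). Ndufa4l2, a hypoxia-linked relative of Ndufa4, lay just inside the minimum, with 2.73 in replicate 6, a median of 8.78 and 19.5 in replicate 1. Its slope on Ppargc1a was -0.84 ± 0.27 (limma adjusted p = 0.026) and was not called without replicate 6, 7, 8 or 9 (adjusted p = 0.0509 to 0.0842), and its slope on the multi-aligned share was 0.184 ± 0.104 (adjusted p = 0.182). Ndufs6, with 4.66 in replicate 2, a median of 19.8 and 37.3 in replicate 5, was called on the multi-aligned share (0.249 ± 0.0788, adjusted p = 0.0273, and 0.125 without replicate 5). Its symbol is also an older name of a pseudogene, and whether its row captured the reads of the gene was not tested.

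In complex II, all 4 subunits were steadier than the median gene or close to it. Sdha, the flavoprotein that oxidises succinate, had 19319 normalised reads in replicate 1, a median of 23363 and 27084 in replicate 3, a 1.40-fold range. Its slopes were -0.00742 ± 0.0301 on the multi-aligned share (limma adjusted p = 0.863) and 0.02 ± 0.09 on Ppargc1a (adjusted p = 0.853). Sdhb, the iron-sulphur subunit, had 8606 in replicate 2, a median of 11022 and 13242 in replicate 8. The soluble pair passed neither slope test, with slopes of 0.0578 ± 0.0318 (adjusted p = 0.171) and -0.21 ± 0.09 (adjusted p = 0.0837) for Sdhb. Of the membrane anchors, Sdhc had 8798 in replicate 2, a median of 10929 and 17278 in replicate 5, and was called in both slopes (0.111 ± 0.0348, adjusted p = 0.0267, and -0.33 ± 0.11, adjusted p = 0.0298). Sdhd had 6659 in replicate 3, a median of 7654 and 10156 in replicate 5, and was called on Ppargc1a only (-0.23 ± 0.08, adjusted p = 0.0323), with a slope close to that of Sdhb. Both anchors were highest in replicate 5. These calls did not hold without single replicates: leaving out replicate 2, 3, 5, 6, 7 or 8 put Sdhd at an adjusted p of 0.0518 to 0.151, and leaving out replicate 3, 5, 7, 8 or 9 put the Ppargc1a slope of Sdhc at 0.0511 to 0.166. The slope of Sdhc on the multi-aligned share had an adjusted p of 0.0686 without replicate 2 and 0.233 without replicate 5.

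Complex III held some of the steadiest and some of the widest subunits. Uqcrc2, a core protein, had 9986 normalised reads in replicate 1, a median of 12386 and 14214 in replicate 4, a 1.42-fold range. Uqcrfs1, the Rieske iron-sulphur protein, had 8721 in replicate 1, a median of 11514 and 13657 in replicate 5, a 1.57-fold range. Neither was called in a slope, and both were lowest in replicate 1. Cyc1, the cytochrome c1 haem protein, had 4264 in replicate 3, a median of 6824 and 12839 in replicate 5, a 3.01-fold range, and was called in both slopes (0.166 ± 0.0422, limma adjusted p = 0.0107, and -0.57 ± 0.11, adjusted p = 0.00206). Uqcr11, a small accessory subunit, had 3367 in replicate 2, a median of 4539 and 11567 in replicate 5, well apart from the next value of 6925, with a slope on the multi-aligned share of 0.219 ± 0.0305 (adjusted p = 0.00199). The electron-carrying Cyc1 and Uqcrfs1 thus had different ranges within 1 complex. Uqcrc1, the other core protein, ranged from 8261 in replicate 3 to 15705 in replicate 5 and was called in both slopes. Leaving out replicate 5 ended the calls of Cyc1 and Uqcrc1 on the multi-aligned share (adjusted p = 0.135 and 0.130).

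Cycs, the soluble carrier between complexes III and IV, had 5792 normalised reads in replicate 1, a median of 8715 and 12051 in replicate 4, a 2.08-fold range. Its slopes were -0.0299 ± 0.0413 on the multi-aligned share (SE, limma adjusted p = 0.596) and -0.02 ± 0.13 on Ppargc1a (adjusted p = 0.934). Neither slope was distinguishable from 0, and its order of replicates was unlike that of the complexes. RefSeq lists pseudogenes for 37 of the 76 members matched by symbol, 91 in all, with 7 for Cycs and at most 8 for a single member. Reads that fit a gene and its copy would have been counted with the multi-aligned reads. Whether such copies bear on the values of Cycs or of other members was not tested.

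Complex IV had the largest median spread. Cox4i1, the ubiquitous form of the largest nuclear subunit, had 14362 normalised reads in replicate 3, a median of 20572 and 39287 in replicate 5, with slopes of 0.178 ± 0.0404 (SE, limma adjusted p = 0.0063) and -0.58 ± 0.11 (adjusted p = 0.0019). Cox8a, a small membrane subunit, had 5098 in replicate 3, a median of 10879 and 20471 in replicate 5, a 4.02-fold range. Cox6a1, the non-muscle form of subunit VIa, had 8353 in replicate 2, a median of 10859 and 26890.3 in replicate 5, well apart from the next value of 17699, with slopes of 0.211 ± 0.0404 (adjusted p = 0.00318) and -0.64 ± 0.13 (adjusted p = 0.00236). Replicate 5 was highest for all of them. Cox7a2l, known for its part in joining complexes III and IV into supercomplexes, had 2316 in replicate 9, a median of 2780.3 and 3912 in replicate 5 (next value 3049), the smallest SD of log2 values in the complex (0.25), and was called in both slopes. Once replicate 5 was left out, calls on the multi-aligned share were lost for Cox4i1, Cox6a1, Cox7a2l and Cox8a (adjusted p = 0.0901, 0.0909, 0.109 and 0.151), and so was that of Cox7a2l on Ppargc1a (adjusted p = 0.0531). Cox6c was called in neither (adjusted p = 0.187 and 0.182), with 8016 in replicate 2, a median of 11470.3 and 14174 in replicate 8.

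Tissue forms of complex IV subunits were sparse. Cox4i2, a form known from lung, had 9.95 normalised reads in replicate 3, a median of 23.4 and 33.9 in replicate 1. Cox6b2, the testis form, had 8.55 in replicate 2, a median of 11.6 and 21.2 in replicate 5. The muscle forms lay under the minimum, so they are described outside the 79. Cox7a1, just outside it, had 5.93 in replicate 4, a median of 9.11 and 19.0 in replicate 5; Cox6a2 had 1.32 to 5.99 and Cox8b 0 to 14.8. Cox8b had 0 reads in replicate 3, which allows a share of up to 2.79e-05% of gene reads. Beside them, the 5 skeletal muscle markers summed to 27.2 to 84.2 normalised reads, the 4 cardiac and slow muscle markers to 19.8 to 67.7, and the 2 brown adipose markers found to 9.11 to 41.1. Myh4, Myh6, Actc1 and Elovl3 of these lists were at 0 in at least 1 replicate. Their part in these values was not tested. Atp5pb, a complex V gene and not one of these tissue forms, was the other row under the minimum, with 0 to 1.37. Whether its row captured the reads of the gene was not tested, so its absence from the tissue cannot be read from this value.

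In complex V, the catalytic pair was steady and many small subunits were not. Atp5f1a had 49936 normalised reads in replicate 1, a median of 64193 and 76281 in replicate 5, a 1.53-fold range, and Atp5f1b had 84519 in replicate 1, a median of 106262 and 131418 in replicate 5, a 1.55-fold range. Neither was called on the multi-aligned share (limma adjusted p = 0.56 and 0.276) or on Ppargc1a (0.273 and 0.185). Atp5f1d, of the central stalk, had 4674 in replicate 3, a median of 7232 and 16973 in replicate 5, a 3.63-fold range, with slopes of 0.227 ± 0.0427 (SE, limma adjusted p = 0.00299) and -0.71 ± 0.13 (adjusted p = 0.00137). Its stalk partner Atp5f1e had 4869 in replicate 2, a median of 7265 and 13828 in replicate 5, and was called in both slopes. Atp5c1, the central shaft, now named Atp5f1c, spanned only 1.39-fold and was called on Ppargc1a alone (-0.23 ± 0.09, adjusted p = 0.0493, and 0.139 without replicate 5). Central stalk genes therefore ranged from 1.39-fold to 3.63-fold.

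The 3 genes of the membrane ring encode the same mature subunit c. Atp5mc1 had 5215 normalised reads in replicate 3, a median of 6680.2 and 15598 in replicate 5 (2.99-fold), and Atp5mc2 had 5142 in replicate 9, a median of 6579 and 13903 in replicate 5 (2.70-fold). Atp5mc3 had 14852 in replicate 2, a median of 21522 and 26310.5 in replicate 5 (1.77-fold). Atp5mc1 and Atp5mc2 were called in both slopes, and Atp5mc3 in neither (adjusted p = 0.195 and 0.282), and the difference between them was not tested. Atp5i, a membrane subunit now named Atp5me, had the widest range in the complex at 3.95-fold, with 2853 in replicate 2, a median of 5257 and 11263 in replicate 5 (next value 6864). Atp5po, which holds the catalytic head to the peripheral stalk, had 9429 in replicate 3, a median of 14614 and 22209.6 in replicate 5, and was called in both slopes. Calls on the multi-aligned share were lost without replicate 5 for Atp5mc1, Atp5mc2, Atp5i and Atp5po (adjusted p = 0.0940, 0.0763, 0.0722 and 0.113), and so was that of Atp5i on Ppargc1a (adjusted p = 0.131). Atp5if1, the inhibitor that blocks ATP hydrolysis, was called in neither (adjusted p = 0.0816 and 0.087), with 4604 in replicate 2, a median of 7727 and 10204 in replicate 8. Atp5s, now named Dmac2l, was the steadiest, with 342 in replicate 3, a median of 392 and 447 in replicate 5.

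Known regulators went in both directions. Of 11 tested, 1 was higher (9.09%) and 4 lower (36.4%) with the multi-aligned share, against 16.3% and 18.7% of all tested genes, and of 10 tested on Ppargc1a, 4 were higher and 1 lower, against 20.2% and 19.2%. Without replicate 5, 0 were higher and 4 lower with the share, against 531 and 1209 of all 13647 tested genes. The counts on Ppargc1a were again 4 and 1, against 1765 and 1180 of 13646. Esrra, a nuclear receptor that drives respiratory genes, had 1133 normalised reads in replicate 3 and 3677 in replicate 5 and was higher with the share (slope 0.201 ± 0.0374, SE, limma adjusted p = 0.0029, and 0.0834 without replicate 5) and lower with Ppargc1a (-0.58 ± 0.13, adjusted p = 0.00393). Its relative Esrrg had 335 in replicate 5 and 1547 in replicate 6 and ran the other way (-0.267 ± 0.0492, adjusted p = 0.00272, and 0.92 ± 0.11, adjusted p = 5.55e-05), as did the fatty acid receptor Ppara and Yy1, though Yy1 was not called on the share without replicate 5 (adjusted p = 0.0502). Ppargc1b, the relative of Ppargc1a, was higher with it (0.49 ± 0.14, adjusted p = 0.0141). Nrf1, whose motif is shown above, was called in neither slope (adjusted p = 0.566 and 0.368), nor was Tfam, which maintains mitochondrial DNA (adjusted p = 0.820 and 0.814).

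Assembly factors build the complexes without being part of them. Of 34 tested, 9 were higher (26.5%) and 3 lower (8.82%) with the multi-aligned share, against 16.3% and 18.7% of all tested genes. On Ppargc1a, 2 were higher (5.88%) and 10 lower (29.4%), against 20.2% and 19.2%. Without replicate 5, the counts were 2 and 2 on the share, against 531 and 1209 of all 13647 tested genes. On Ppargc1a they were then 2 and 5, against 1765 and 1180 of 13646. Among those that serve complex IV, Coa3, Cox17, Cox19 and Pet100 were higher with the share (limma adjusted p = 0.0052, 0.00659, 0.0153 and 0.0271), and Coa5 and Cox15 were lower with it (-0.187 ± 0.0531, adjusted p = 0.0173, and -0.122 ± 0.0297, adjusted p = 0.00878). Without replicate 5, Coa3, Coa5 and Cox15 were still called on the share (adjusted p = 0.0488, 0.0387 and 0.0421), while Cox17, Cox19 and Pet100 were not (adjusted p = 0.0595, 0.105 and 0.265). The citric acid cycle feeds NADH and succinate to the chain. Of its 10 genes tested, 0 were higher and 1 lower with the share, and 1 was higher and 1 lower with Ppargc1a, each under the share of all tested genes. Citrate synthase, Cs, was lower with the share (-0.0812 ± 0.0266, adjusted p = 0.0322, and 0.0977 without replicate 5), and Mdh2 was lower with Ppargc1a (-0.44 ± 0.11, adjusted p = 0.00724).

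Markers of the cell types in the cortex were set beside the subunits. The 7 proximal tubule markers found of 8 summed to 249474 normalised reads in replicate 1 and 516468 in replicate 8, with 459076 in replicate 5 and 380918 in replicate 2. The largest part of that sum was Pck1, a gene of glucose synthesis, with 122789 in replicate 1 and 281839 in replicate 8. Single markers had other orders. The phosphate transporter Slc34a1 (107425) and the water channel Aqp1 (46628) were highest in replicate 5, where most subunits were highest. Slc5a2 and Slc22a6 were highest in replicate 8, Pck1 in replicate 7, Cubn in replicate 2 and Slc5a12 in replicate 9. In replicate 5, Cubn had 11173 and Slc5a12 5346, against highest values of 17257 and 13251. With the multi-aligned share, 0 of the 7 were higher and 1, the lactate transporter Slc5a12, was lower (limma adjusted p = 0.0195, and 0.0188 without replicate 5). With Ppargc1a, Slc34a1 was lower (adjusted p = 0.0176, and 0.0814 without replicate 5). The 5 macrophage markers summed to 5351 in replicate 3 and 8400.2 in replicate 5, and most of that sum was Lyz2. The complement genes C1qa, C1qb and C1qc were higher with the share, 3 of 5 against 16.3% of all tested genes, and C1qc alone was still called without replicate 5 (adjusted p = 0.0192). Cd68 and Lyz2 were not called on it (adjusted p = 0.0801 and 0.212). With Ppargc1a, Cd68, C1qb and C1qc were lower (adjusted p = 0.0161, 0.0316 and 0.0061), against 19.2% of all tested genes. Without replicate 5, only C1qc was (adjusted p = 0.0453). The part of these markers in the slopes of the subunits was not tested.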

How the data were processed

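Messenger RNA from flash-frozen kidney cortex was purified on columns and made into stranded libraries, per the labels' protocols. Build Rnor_5.0 and the tools HTSeq 0.6.1p1, DESeq2, FastQC 0.11.2 and MultiQC 0.9 are listed in the submitters' processing notes; no aligner and no strand setting of the counting is given in the sources used here, so antisense or overlapping genes may share reads. The authors deposited a signal, reads per gene scaled by a size factor. Whole reads were recovered from it: 100% of values came out whole (tolerance 0.1), and 1 read was worth 0.544 to 1.99. Of 18423 rows, 3 named no gene and were kept out of tests and totals; they held the reads outside genes (28.9% ± 2.93 of counted reads, SD, n = 9), aligned to more than 1 place (17.2% ± 2.33) or in more than 1 gene. Library pairs differed beyond counting error (chi-square per degree of freedom 18.3 to 181.1).

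All 9 replicates entered as 1 group, as log2(value + 1), for the 13647 genes averaging at least 10. Slopes are on that scale, which understates changes of low genes. limma 3.58.1 in R 4.3.3, with a robust trend, gave the variance test and both slopes, with Benjamini-Hochberg adjustment over all genes tested and a threshold of 0.05. edgeR 4.0.16 quasi-likelihood and DESeq2 1.42.0 on the recovered reads were alternatives, with other pseudocounts, filters, scalings, covariates and each replicate left out; read shares, lists and all members without replicate 5 were added after seeing the data. The code was tested on simulated data. The members, lists and tests were chosen with earlier results of these data known. Members named with values were the 3 with the highest means and those with the largest and smallest SD in each complex, catalytic, core and tissue-form subunits, and up to 10 called members per test and direction; some are given by count only, and the values of 1 are not reported here. Symbols were taken as listed; Ndufv3.1, Uqcrb.1 and Cox6b1.1 are further rows of the same symbols. RefSeq (GRCr8) held 76 of 79 symbols, 5 of them under an older name, and 3 (Ndufs6, Uqcrb, Cox6b1) are also older names of a pseudogene, so their rows are uncertain.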

Additional observations from a re-analysis of the deposited data

Results flagged for a closer look

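Of 88 sets of 9 values looked at, 5 had a replicate far from the others by Dixon's criterion for a single distant value, where chance gives about 1 in 20. Among the 79 members there were 4, which is near that rate. Each had its highest value in replicate 5, as 60 of the 79 members did. Uqcr11 had 11567 normalised reads there, with 6925 in the next replicate. Cox6a1 had 26890.3, with 17699 next. Cox7a2l had 3912, with 3049 next. Atp5i had 11263, with 6864 next. The share of reads outside genes was lowest in the same replicate, at 22.0%, with 27.2% next.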

How the results depend on the processing

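The count of members higher with the multi-aligned share was 46 (16.3% of all tested genes), and 10 (without replicate 5, 3.89%) to 57 (without replicate 1, 16.7%) when each replicate was left out. The count lower with Ppargc1a was 51 (19.2%), and 29 (without replicate 5, 8.65%) to 53 (without replicate 1, 21.2%). Of the 46, 9 were still called without replicate 5, and 29 of the 51. With the other measure added as a covariate, an alternative chosen after seeing the data, either count was 0, against 0% of all tested genes on the share and 0.022% on Ppargc1a. Without the 2 replicates farthest from the median of the measure, the counts were 38 (4.24%) and 40 (12.7%). The spread of complex II (log2, highest minus lowest replicate) was 0.55, and 0.35 with the same total per library; that of cytochrome c was 1.06, and 0.70 to 1.06 with each replicate left out, lowest without replicate 1. The same total per library moved the median of all genes by 0.16 in replicate 1, -0.14 in replicate 5 and -0.11 in replicate 8 (log2). It gave 1485 genes higher and 2814 lower with the share, against 2225 and 2549 with the deposited scaling, and 3402 higher and 1356 lower with Ppargc1a, against 2750 and 2625; the member counts were then 45 and 45, with 1 member called the other way in each. The cause was not tested. edgeR called 47 and 52 members (2287 and 2615 genes in the same direction), DESeq2 49 and 53, with 1 member the other way on the share. The share outside genes as the measure, sign turned and chosen after seeing the data, gave 52. The variance test called 0 members under every alternative run, but it also called at most 1 of all tested genes, so this count says little about the members. For the 56 slopes of single genes, 1019 of 1144 alternatives kept direction and call, 125 lost the call and 0 changed sign. No paired analysis was possible because all 9 replicates belong to 1 group. At 10757440 reads, replicate 3 limits the sparse members Ndufa4l2, Cox6b2, Ndufs6 and Cox4i2 most.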

Other observations

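Outside the respiratory chain, the summed markers of other nephron segments had another order of replicates than the subunits. The summed level of the 2 thick ascending limb markers found ran from 55915 normalised reads in replicate 9 to 104113 in replicate 1. The 2 collecting duct principal cell markers found ran from 6796 in replicate 9 to 19030 in replicate 1, and the 3 intercalated cell markers found from 8527 in replicate 9 to 16085 in replicate 1. Replicate 1 had the highest sums for all of them and the lowest for the proximal tubule, and it was also the lowest replicate for Cycs, Sdha, Uqcrc2, Uqcrfs1, Atp5f1a and Atp5f1b. This order of the sums was noticed after the values were seen and was not tested. In the slope tests, all 3 intercalated and 2 principal cell markers had slopes above 0 on the multi-aligned share and below 0 on Ppargc1a. With all replicates 0 of them were called. Without replicate 5, Atp6v1b1, Foxi1 and Hsd11b2 were higher with the share (limma adjusted p = 0.0375, 0.0275 and 0.0403), against 3.89% of all tested genes. The 2 thick ascending limb markers had slopes of opposite sign and were not called.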
